A study of Mus musculus with 7 samples.

Results

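The 10 genes described here are *Cend1*, *2900011O08Rik*, *5330417C22Rik*, *Pcnx2*, *Rit2*, *Bcat1*, *Cpt1c*, *Gng3*, *Nacad* and *Faim2*. They were chosen by their fall in *nm3888-/-* Purkinje cells, leaving out cytoskeletal and RNA-binding genes. They come from the 170 genes that the study lists as bound by the transcription factor RREB1 and changed in RNA-seq. Bound here means near a ChIP-seq peak of a tagged RREB1 that a transgene made in Purkinje cells. The study assigned peaks to genes by proximity and calls such genes putative targets. The files hold 55401 genes, of which 17621 passed the filter on low counts, and all 10 passed it. Because the difference between the genotypes chose the 10 genes, their fold changes are given as a description with no test.

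Purkinje cells are the output neurons of the cerebellar cortex, and RREB1 is a zinc finger protein that binds C-rich DNA and can raise or lower transcription. The RNA was collected with RiboTag, in which Cre recombinase makes cells tag their ribosomes, and an antibody to the tag then recovers those ribosomes with the mRNA they carry. All mice were *Rpl22 fl/+* and carried *PCP2-Cre*, which drives the tag in Purkinje cells, and were 3 weeks old. The 3 wild-type mice had no *nm3888* mutation, and the 4 mice labelled mutant were homozygous for it. By the study's account, *nm3888* is a spontaneous mutation from the NOD background, an insertion of an ERV3 element in an intron of *Rreb1* that removes the variant 7 transcript. The study crossed the allele onto C57BL/6J and used littermates where it could, and the sources used here do not say which of these 7 mice were littermates. Each library came from the cerebellum of 1 mouse. Because these are bulk samples, fewer tagged cells that make a gene and less RNA of that gene per cell cannot be told apart.

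The library names fall into a first series of 2 wild-type and 2 mutant mice, all female, and a second series of 1 wild-type female and 2 mutant males. Within the second series, sex and genotype cannot be told apart. Total counts ranged from 18023017 to 107937386. The targeted gene, *Rreb1*, had a CPM (library-size scaled count, TMM-normalized) of 16.5 ± 1.81 (SD, n = 3) in the wild type and 18.5 ± 5.46 (SD, n = 4) in the mutant. Its count covers all transcripts of the gene. It was not lower in the libraries labelled mutant (log2 fold change 0.20, SE 0.23), although the study describes variant 7, the transcript lost in this allele, as the main one in brain. The difference was smaller than its SE, with an adjusted p of 0.640 (edgeR's quasi-likelihood test). Mutants 1 to 3 had 20.2, 19.1 and 23.7 CPM, above every wild-type library, and mutant 4 had 10.8 CPM, below every one. In the study, a blot for all *Rreb1* transcripts lost the main band in the mutant. A probe to all transcripts found no *Rreb1* in mutant brain. The count here, of ribosome-bound RNA, was not lower and so differs from those results, and the reason was not tested. A count over all transcripts does not single out the lost transcript, and it was not used to decide for or against the labels. Wild type and mutant below mean the libraries labelled so, and each direction rests on those labels. The 10 Purkinje cell markers examined, among them *Pcp2* and *Calb1*, summed to 45928 to 51249 CPM in wild-type libraries and 42714 to 57196 CPM in mutant libraries, and none was called (edgeR's quasi-likelihood test, adjusted p under 0.05). Markers of other cells were present at lower levels. The 8 granule cell markers summed to 379 to 478 CPM in the wild type and 528 to 951 CPM in the mutant with none called, and the 8 oligodendrocyte markers to 469 to 702 and 663 to 1190 CPM with 2 called higher. The 8 markers of Bergmann glia and astrocytes summed to 431 to 511 and 387 to 608 CPM, with *Gfap* called higher and *Hopx* called lower. The part of these cells in the values below was not tested.

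The sequence upstream of the start site was examined because the 10 genes fell together and were listed as bound. RefSeq promoter windows (GRCm38.p6) were matched for 7 of the genes, with 8 windows because *Bcat1* has 2, and the 250 bases before each start site were searched on both strands. The letters CCACCC, the core of the C-rich sequence that RREB1 is known to bind, were found in 3 of the 8 windows, each of a different gene. Of 32851 windows of all genes, 28.1% held them, and with only 8 windows no difference is read from this. The E-box letters CAGATG and CAGCTG were found in 0 of the 8 windows, against 14.4% and 13% of all windows. With so few windows no difference is read from this either. Many of the study's peaks lie in introns or between genes, outside such windows. CCACCC was the only motif found, so an overlap between different motifs could not occur. A match of letters is a description of the window and not a binding site. The 30 bases around the match in *Cend1* and *Gng3* are shown, as the largest and the smallest fall of the genes with a match, 5′ to 3′ on the strand of the gene, with CCACCC in capitals.
*Cend1* (chr7:141429633-141429662, minus strand): ctaccctggtctCCACCCttgcagactccg
*Gng3* (chr19:8839407-8839436, minus strand): cacaggcccagaCCACCCcatttgagaggg
The match began 88 bases before the start site in *Cend1* and 178 bases before it in *Gng3*. The searched window of *Cend1* touches an annotated exon of *Slc25a22*, and that of *Gng3* touches one of *Bscl2*. The other gene with a match was *5330417C22Rik*, where it began 161 bases before the start site. *Cend1* and *Gng3* were picked for display by their falls, so nothing is read from their places in the order of loss.

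Every library labelled mutant was below every library labelled wild type in 10 of the 10 genes, and 10 were called lower. These counts follow from the choice of genes and nothing is read from them. Over all tested genes, 8.92% had every mutant library below every wild-type library and 5.95% were called lower. The mutant mean was 4.43 to 35.3% of the wild-type mean, with a median of 16.0%. The median change of the 10 genes on the log2 scale was −2.74, beside 0.03 over all tested genes. Of all tested genes, 176 fell further than the weakest of the 10, and 8 of the 10 were among the 100 largest falls. None of the 10 lies on chromosome 13, where *Rreb1* is.

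**Figure D1:**
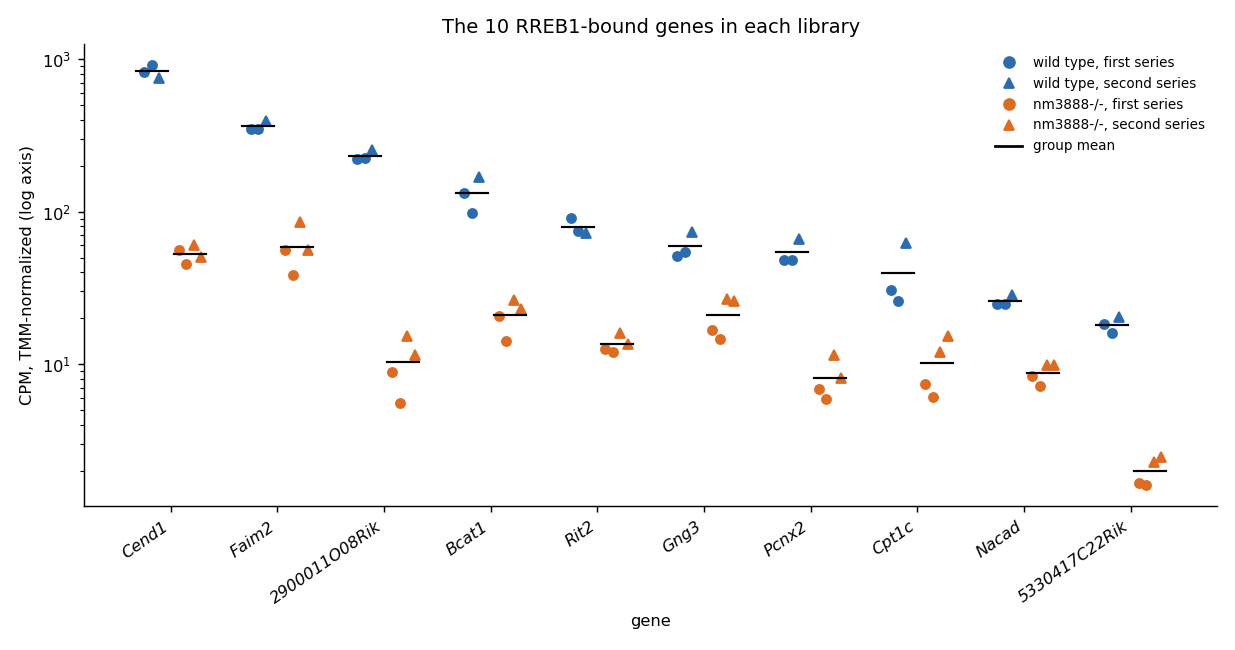
CPM of the 10 genes (log axis) in each library, with wild type in blue and *nm3888-/-* in orange, round points for the first series, triangles for the other and short bars at the means. In each gene the 4 mutant points lie below the 3 wild-type points, from *2900011O08Rik* (233 against 10.3 CPM on average) to *Gng3* (59.7 against 21.1 CPM).

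*Cend1* encodes a neuronal membrane protein that promotes exit from the cell cycle and differentiation, and it was the most abundant of the 10. It lies on chromosome 7 from 141426446 to 141429491 of mm10, on the minus strand. The wild-type mice had 821, 913 and 755 CPM, and the mutant mice 56.3, 45.0, 60.0 and 50.2 CPM. The lowest wild-type value was 12.6 times the highest mutant value, with no overlap. On the log2 scale *Cend1* was −3.97 (SE 0.13) in the mutant relative to wild type, the 4th lowest value of all tested genes. Its spread was small in both genotypes, with a coefficient of variation (SD over mean) of 9.56% in the wild type and 12.5% in the mutant.

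*2900011O08Rik* is named *Bmerb1* in newer annotation, after its bMERB domain, a fold that in related proteins binds Rab GTPases of membrane traffic. It lies on chromosome 16 from 13986604 to 14101500, on the plus strand, the only one of the 10 on that strand. Its values were 222, 226 and 252 CPM in the wild type. In the mutant they were 8.85, 5.54, 15.3 and 11.5 CPM. The log2 fold change of −4.66 (SE 0.22) was the largest fall of the 10 and the 3rd of all tested genes. The wild-type mice were close together (coefficient of variation 6.91%), whereas the mutant mice spread by 40.2%, with mutant 3 highest and mutant 2 lowest.

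*5330417C22Rik*, named *Elapor1* in RefSeq, encodes a transmembrane protein of endosomes and lysosomes that has been linked to autophagy. The gene lies on chromosome 3 from 108455694 to 108536536, on the minus strand. It had 18.3, 16.0 and 20.3 CPM in the wild-type mice and 1.68, 1.61, 2.27 and 2.48 CPM in the mutant mice. The groups did not overlap, and the log2 fold change was −3.25 (SE 0.14). This was the least abundant of the 10, with 32 counts in mutant 1, the lowest count of any of the 10 genes in any library.

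*Faim2* encodes a membrane protein of the TMBIM family that protects neurons from death signalled by the Fas receptor. It lies on chromosome 15 from 99497012 to 99528165, on the minus strand. Wild-type values were 347, 349 and 392 CPM. Mutant values were 56.1, 38.1, 85.2 and 56.2 CPM. There was no overlap, and the fall was −2.72 (SE 0.19) as a log2 fold change. Mutant 3 was again high and mutant 2 low, with a coefficient of variation of 33.1% in the mutant against 7.05% in the wild type.

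*Bcat1* encodes the cytosolic branched-chain aminotransferase, which moves the amino group of leucine, isoleucine and valine to alpha-ketoglutarate and so makes glutamate. The gene is on chromosome 6 from 144993835 to 145076184, on the minus strand. It had 133, 97.6 and 168 CPM in the wild type and 20.6, 14.1, 26.3 and 22.9 CPM in the mutant. Relative to wild type the mutant was at −2.75 (SE 0.16) on the log2 scale. Spread was of like size in both genotypes, at 26.5 and 24.5%, and the groups did not overlap.

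*Cpt1c* encodes the brain form of carnitine palmitoyltransferase 1, a protein of the endoplasmic reticulum with little transferase activity that binds malonyl-CoA and acts on AMPA receptor traffic. It lies on chromosome 7 from 44959372 to 44974851, on the minus strand. Values in the wild type were 30.8, 25.8 and 61.8 CPM. Those in the mutant were 7.44, 6.08, 12.1 and 15.4 CPM. In both genotypes the libraries of the second series were higher than those of the first, and the wild-type coefficient of variation of 49.4% was the largest of the 10. The lowest wild-type value was 1.67 times the highest mutant value, the narrowest gap of the 10. The log2 fold change was −2.12 (SE 0.13) with the library series as a term. *Cpt1c* was not called when sex took the place of the series, and neither *Cpt1c* nor *Gng3* was called with no such term.

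*Pcnx2* encodes a pecanex protein, a large membrane protein whose function in mammals is little known. It lies on chromosome 8 from 125751508 to 125898317, on the minus strand. The wild-type mice had 48.4, 48.3 and 66.0 CPM and the mutant mice 6.86, 5.93, 11.5 and 8.14 CPM. The groups did not overlap, and the log2 fold change was −2.85 (SE 0.14).

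*Gng3* encodes a gamma subunit of heterotrimeric G proteins that is found mainly in neurons. It lies on chromosome 19 from 8836933 to 8839194, on the minus strand, and overlaps *Bscl2* on the other strand. It had 51.2, 54.7 and 73.1 CPM in the wild type and 16.8, 14.6, 26.9 and 26.0 CPM in the mutant. The second series was higher in both genotypes, and the groups did not overlap. The log2 fold change was −1.64 (SE 0.11). *Bscl2*, the seipin gene of lipid droplets, had 6.70 ± 4.21 CPM (SD, n = 3) in the wild type and 7.81 ± 4.30 CPM (SD, n = 4) in the mutant, with −0.04 as its log2 fold change (SE 0.15, adjusted p = 0.904, edgeR). The kit kept strand and the counting used it.

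*Rit2*, which encodes a small GTPase of the Ras family that binds calmodulin and is made mainly in neurons, lies on chromosome 18 from 30973489 to 31317290, on the minus strand. The wild-type mice had 90.3, 75.1 and 72.4 CPM. The mutant mice had 12.7, 12.0, 16.0 and 13.6 CPM. The mutant coefficient of variation, 12.9%, was close to that of the wild type, 12.2%. The log2 fold change was −2.56 (SE 0.13), and the groups did not overlap.

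*Nacad* encodes a large protein with the domain of the nascent polypeptide-associated complex, which meets new chains at the ribosome. It is on chromosome 11 from 6597823 to 6606053, on the minus strand. It had 24.7, 24.6 and 28.5 CPM in the wild type and 8.33, 7.18, 9.84 and 9.87 CPM in the mutant. With a log2 fold change of −1.61 (SE 0.11) it was the weakest fall of the 10. The groups did not overlap, and the lowest wild-type value was 2.50 times the highest mutant value.

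Per length of exon, wild-type levels of the 10 genes ranged from 2.88 to 468 CPM per kilobase, which placed them between the 46.9th and the 99.5th percentile of tested genes. *Cend1* stood first at 468 ± 44.7 CPM per kilobase (SD, n = 3) and *2900011O08Rik* next at 97.3 ± 6.73, and neither range touched its neighbour in the order. *Gng3* (36.3 ± 7.15) and *Faim2* (29.0 ± 2.04) overlapped. So did *Rit2* (17.6 ± 2.15) and *Bcat1* (14.3 ± 3.78), *Bcat1* and *Cpt1c* (7.05 ± 3.48), *Cpt1c* and *Pcnx2* (5.67 ± 1.06), and *Pcnx2* and *Nacad* (5.31 ± 0.448). *5330417C22Rik* was last at 2.88 ± 0.343 CPM per kilobase and below *Nacad* in every wild-type library. In all, 5 of the 9 pairs of neighbours in the order overlapped.

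The order was different in the mutant. *Cend1* was still first, at 29.8 ± 3.73 CPM per kilobase (SD, n = 4), but *Gng3*, with a small loss, came next at 12.8 ± 3.84. *2900011O08Rik* dropped to 4.31 ± 1.73 and overlapped with *Faim2* at 4.71 ± 1.56 and *Rit2* at 3.02 ± 0.388. At the low end were *Pcnx2* at 0.847 ± 0.254 and *5330417C22Rik* at 0.319 ± 0.0686 CPM per kilobase. The 10 genes then lay between the 13.3rd and the 89.5th percentile of tested genes.

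The level left in a mutant mouse was set against the wild-type mean of its own library series. It was highest in *Nacad* at 33.0 ± 2.64% (SD, n = 4) and *Gng3* at 32.9 ± 4.21%, which overlapped, and *Cpt1c* followed at 23.1 ± 3.09%. *Cpt1c*, *Rit2* (17.7 ± 3.47%), *Faim2* (15.8 ± 4.51%) and *Bcat1* (14.9 ± 2.47%) each overlapped with the next in the order, which after *Bcat1* was *Pcnx2* (14.0 ± 2.41%). *5330417C22Rik* at 10.6 ± 1.29% lay apart from its neighbours. *Cend1* at 6.57 ± 1.13% and *2900011O08Rik* at 4.28 ± 1.50% were lowest and overlapped.

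The mutant mice differed in the same way in most of the 10 genes. In CPM, mutant 2 had the lowest value of the 4 in 10 of the 10 genes, whereas mutant 3 had the highest in 7 and mutant 4 in the other 3. Mutants 3 and 4 are both of the second series. The share of all tested genes with this order was not counted, so it is not read as particular to the 10. Against wild-type mice of their own series, the median level left over the 10 genes was 15.7% in mutant 1, 12.3% in mutant 2, 18.5% in mutant 3 and 14.0% in mutant 4. The summed granule cell markers were 528, 536, 951 and 587 CPM in mutants 1 to 4, and the summed Bergmann glia and astrocyte markers 608, 387, 599 and 560 CPM. Their part in the level left was not tested.

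**Figure D2:**
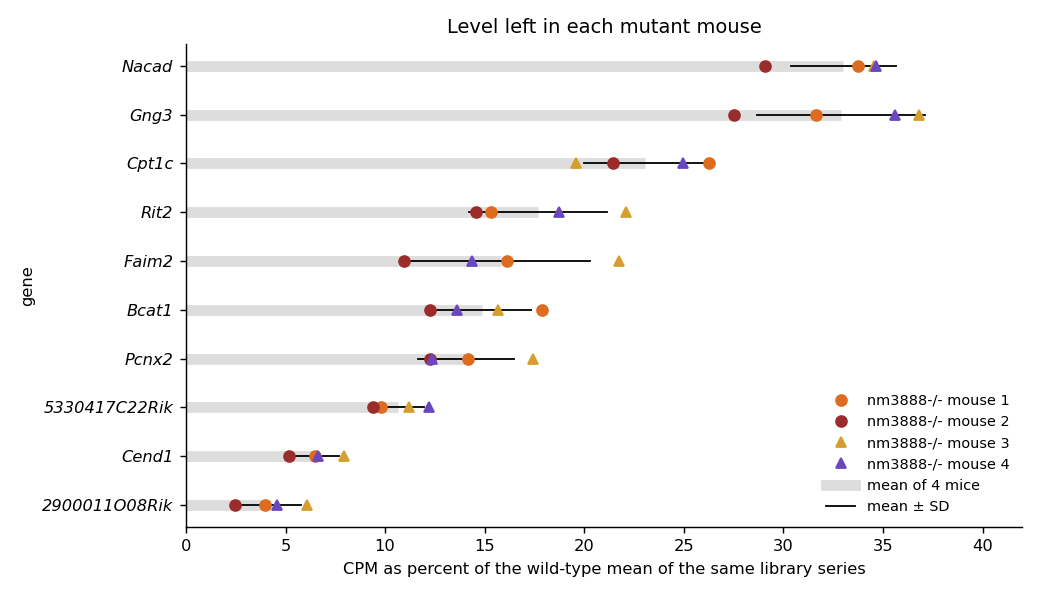
CPM of each gene in each *nm3888-/-* mouse as a percent of the wild-type mean of the same library series, with circles for the first series, triangles for the second, grey bars for the mean of 4 mice and lines for its SD. The means run from 4.28% in *2900011O08Rik* to 33.0% in *Nacad*, and mutant 2 is the lowest in every gene except *Cpt1c*.

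Whether the change differed between the library series was tested with an interaction term, since the rule did not use that difference. Of the 10 genes, 0 were called by edgeR's quasi-likelihood test, 0 had an unadjusted p under 0.05, and DESeq2 gave the same counts of 0 and 0. Over all tested genes 0.0795% were called. The estimate was positive, a smaller fall in the second series, in 8 of the 10 genes. It was largest in *2900011O08Rik*, with a log2 fold change of −4.98 in the first series and −4.22 in the second, and a difference of 0.76 (SE 0.34, 95% interval −0.03 to 1.55, adjusted p = 0.880). In *Rit2* the difference was 0.45 (95% interval −0.08 to 0.99) and in *Bcat1* −0.03 (95% interval −0.80 to 0.73). The second series has only 1 wild-type mouse, so the intervals are wide, and a difference of 1 on the log2 scale lies inside that of *2900011O08Rik* and of *Faim2* (−0.42 to 1.25).

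The 10 genes were not the strict top of the 170 targets. Beside them, 13 other targets fell further than *Nacad*: *Stmn4*, *Caly*, *Cntnap2*, *Serpini1*, *Ttbk1*, *Ctnna2*, *Kcnj9*, *Ttc9b*, *Spock1*, *Elavl3*, *Hs3st5*, *Mid1ip1* and *Ano3*. Some of them are cytoskeletal or RNA-binding genes, such as *Stmn4*, a stathmin that binds tubulin, *Ttbk1*, a kinase of tau and tubulin, and *Elavl3*, a neuronal RNA-binding protein. Others, such as *Caly*, which encodes a vesicle protein, *Kcnj9*, which encodes a potassium channel subunit, and *Serpini1*, a neuronal protease inhibitor, are not. *Stmn4* had a log2 fold change of −3.66 (SE 0.14), from 394 ± 91.2 (SD, n = 3) to 33.0 ± 8.44 CPM (SD, n = 4). At the edge, *Ano3* at −1.65 (SE 0.24) lay just beyond *Gng3* and *Nacad*, and *Ccdc177* at −1.58 (SE 0.20) just short of them, all within 1 SE of *Nacad*.

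Of the 160 other targets, all tested, 108 were called lower, 25 higher and 27 not called, and the median was −0.56 on the log2 scale. The study chose these targets as changed in RNA-seq of this series, so these counts are no independent evidence of a direction. With a block for the replicate number in place of the library series, 63 of them were called lower. The count was 68 without wild-type mouse 1 or mutant 2, 54 without wild-type mouse 2 and 52 without wild-type mouse 3.

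**Figure D3:**
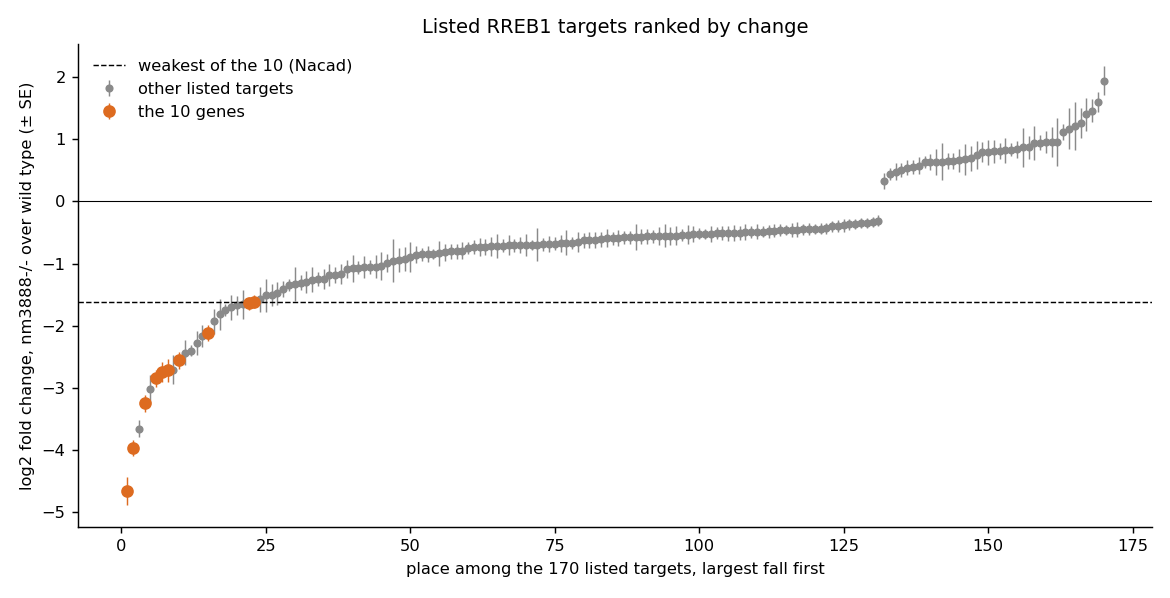
Log2 fold change (± SE) of the 170 listed targets in order, with the 10 genes in orange and the other 160 in grey. The 10 genes lie from −4.66 to −1.61, with 13 other targets below the dashed line drawn at *Nacad*.

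Relatives of the 10 genes, from the same protein families, were compared next. The rule for the 10 genes did not use them, but *Mical2* is among the other listed targets, which the study chose as changed in this RNA-seq. Of 35 relatives 31 were tested, and 1 was called lower, 2 higher and 28 not, beside 8.54% of all tested genes called in either direction. Their median log2 fold change was −0.04, and the range was −0.49 to 1.44. With a block for the replicate number 0 of the 35 relatives were called, and each of the 3 calls was kept in at most 2 of the 7 fits that left out 1 library.

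*Mical2*, an actin-oxidizing enzyme with a bMERB domain and the listed target among the relatives, was called lower at −0.49 (SE 0.12, adjusted p = 0.0407, edgeR). Its values were 25.4, 26.7 and 49.3 CPM in the wild type and 18.3, 17.2, 42.6 and 31.8 CPM in the mutant, so the groups overlapped and differed within each series. The relative of *2900011O08Rik* with the highest level per length, *Micall1*, a Rab effector of endosome recycling, had 65.5 ± 1.53 (SD, n = 3) and 62.6 ± 5.03 CPM (SD, n = 4) and was not called. *Cpt2*, the carnitine palmitoyltransferase of the inner mitochondrial membrane, was called higher at 0.98 (SE 0.23, adjusted p = 0.0313). It had 1.62, 1.98 and 2.0 CPM in the wild type and 4.82, 3.07, 3.96 and 3.10 CPM in the mutant, with no overlap. *Cpt1a*, the liver form of the first enzyme, was not called at 0.42 (SE 0.18, adjusted p = 0.213). *Gng5*, a widely made gamma subunit, was called higher at 1.44 (SE 0.36, adjusted p = 0.0424), at a level of at most 1.74 CPM, with 0.119, 0.119 and 0.527 CPM in the wild type and 0.105, 0.298, 1.74 and 1.57 CPM in the mutant. Mutant 1 was below the wild type, and the groups overlapped.

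For several of the 10, the listed relative with the highest wild-type level per length was not called. *Gng13*, the gamma subunit with the highest level here, had 1164 CPM per kilobase in the wild type and 1359 in the mutant and a log2 fold change of 0.12 (SE 0.17). *Pcnx4* was at 0.05 (SE 0.09), *Rit1* at −0.10 (SE 0.12), and *Bcat2*, the mitochondrial branched-chain aminotransferase, at 0.10 (SE 0.16). *9330182L06Rik*, the paralog of *5330417C22Rik*, was at −0.33 (SE 0.16, adjusted p = 0.250). *Grina*, of the TMBIM family like *Faim2*, had −0.34 (SE 0.10, adjusted p = 0.0843). *Btf3*, the beta subunit of the nascent polypeptide-associated complex, had −0.17 (SE 0.14), but its level was 10.5 to 15.3 CPM in the first series and 66.2 to 80.3 CPM in the second, a wider gap between the series than in any of the 10 genes.

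Partners, which act with the 10 genes in a pathway or complex, numbered 31, of which 29 were tested. Called lower were 4 and called higher 0, with 25 not called and a median of −0.08 on the log2 scale, beside the same 8.54% of all genes. With a block for the replicate number 2 remained called, *Atl1* and the listed target *Calm3*, and the count was 2 without wild-type mouse 2 and 0 without wild-type mouse 3. *Ppm1k*, the phosphatase that activates breakdown of branched-chain keto acids downstream of *Bcat1*, was at −0.51 (SE 0.09, adjusted p = 0.0118, edgeR), and its values of 70.1, 67.4 and 50.1 CPM in the wild type overlapped with 43.8, 50.9, 37.5 and 35.4 CPM in the mutant. The subunits of the keto acid dehydrogenase itself, *Bckdha*, *Bckdhb* and *Dbt*, were not called.

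*Atl1*, atlastin, a GTPase that shapes the endoplasmic reticulum and is a partner of *Cpt1c*, was called lower at −0.66 (SE 0.11, adjusted p = 0.00727). It had 30.1, 28.5 and 42.4 CPM in the wild type and 17.9, 18.5, 30.8 and 24.6 CPM in the mutant, and the groups overlapped across but not within the series. The AMPA receptor genes listed with *Cpt1c*, *Gria1* to *Gria4*, were not called, with *Gria4* at 1.03 (SE 0.36, adjusted p = 0.126). *Gnb5*, a beta subunit of G proteins that also pairs with RGS proteins, was called lower at −0.51 (SE 0.08, adjusted p = 0.00650), from 123, 113 and 152 CPM in the wild type to 82.2, 84.4, 107 and 106 CPM in the mutant, with no overlap. *Gnb1*, the most abundant beta subunit, was not called at −0.11 (SE 0.09). *Calm3*, a calmodulin gene that acts with *Rit2*, was called lower at −0.58 (SE 0.10, adjusted p = 0.00882). It is one of the other listed targets, chosen by the study as changed in these data, so its call is not independent evidence. It had 1189, 1296 and 1495 CPM in the wild type and 871, 890, 842 and 996 CPM in the mutant, with no overlap, whereas *Calm2* was at −0.08 (SE 0.16) and was not called.

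**Figure D4:**
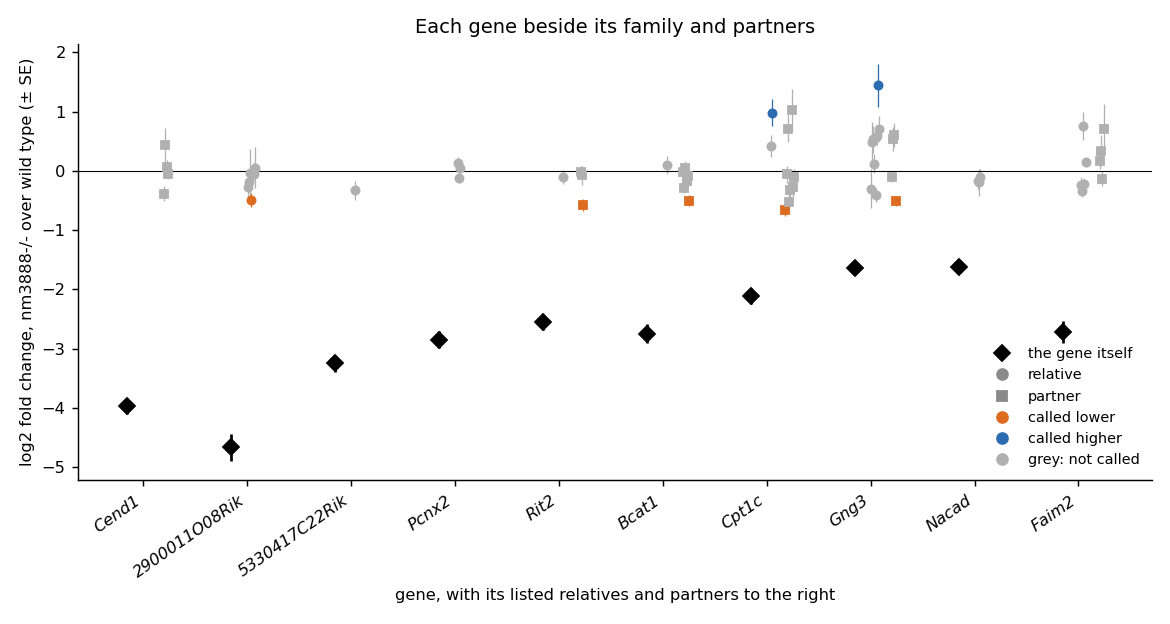
Log2 fold change (± SE) of each of the 10 genes (black diamonds) with its tested relatives (circles) and partners (squares) to the right, in orange where called lower, blue where called higher and grey where not called. The relatives lie from −0.49 to 1.44 and the partners from −0.66 to 1.03, above the 10 genes at −4.66 to −1.61.

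Genes that lie near the 10 were examined because position was not used in the choice of the 10. Within 100 kb, 77 genes were tested, 7 were called lower, 3 higher and 67 not, beside 8.54% of all tested genes called in either direction. Their median log2 fold change was 0.05. Of the 77, *Slc25a22* and *Tspan4* are themselves listed targets, which the study chose as changed in this RNA-seq, so their calls are not independent evidence. Of the other 75 genes, 5 were called lower and 3 higher. *Bcat1* and *Rit2* had no tested gene in this window, and none of the 20 neighbours of *Gng3* or the 4 of *Nacad* was called. With a block for the replicate number, the calls in this window fell to 2, the same listed targets *Slc25a22* and *Tspan4*. The count was 1 without wild-type mouse 3, 2 without wild-type mouse 2, 3 without wild-type mouse 1 or mutant 2, and 5 without mutant 4.

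*Slc25a22*, a listed target that encodes a mitochondrial carrier of glutamate, lies 253 bases upstream of *Cend1* on the same strand. It had 311, 338 and 352 CPM in the wild type and 216, 198, 186 and 222 CPM in the mutant, with no overlap. The log2 fold change was −0.71 (SE 0.10, adjusted p = 0.00334, edgeR), beside −3.97 in *Cend1*. It stayed called in 7 of the 7 fits that left out a library and in the blocked fit (adjusted p = 0.0202), and its adjusted p was 2.76e-06 to 0.111 over 15 alternatives. *Tspan4*, a tetraspanin gene and listed target 45749 bases upstream of *Cend1*, was called lower at −0.74 (SE 0.11, adjusted p = 0.00540), with 19.0, 18 and 28.6 CPM in the wild type and 12.3, 10.3, 18.1 and 15.4 CPM in the mutant. Mutant 3 lay just above wild-type mouse 2, so the groups overlapped. *Cd151*, another tetraspanin gene and 37901 bases upstream, was called higher at 0.70 (SE 0.16, adjusted p = 0.0310), so called neighbours of *Cend1* went both ways.

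*Map3k21*, a kinase gene 12133 bases upstream of *Pcnx2*, was called lower at −1.52 (SE 0.38, adjusted p = 0.0444) at a level of at most 0.849 CPM, and the groups did not overlap. Near *5330417C22Rik*, *Gm12525* was called lower at −1.22 (SE 0.25, adjusted p = 0.0192) at no more than 1.15 CPM, and *Celsr2*, a cadherin of planar cell polarity, at −0.33 (SE 0.08, adjusted p = 0.0430). *Celsr2* was called in 0 of the 7 fits that left out a library. Beside *2900011O08Rik*, *Mpv17l* was at −0.45 (SE 0.09, adjusted p = 0.0178), and beside *Faim2*, *Nckap5l* was at −0.43 (SE 0.10, adjusted p = 0.0321). The called neighbours of *Cpt1c* were both higher. These were *Fuz*, a gene of cilium formation, at 0.79 (SE 0.16, adjusted p = 0.0185) and *Prrg2* at 0.64 (SE 0.14, adjusted p = 0.0218).

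In all, 14 annotated genes overlapped one of the 10, of which 2 were tested. They were *Bscl2* and *Gm15806*, antisense to *2900011O08Rik*, with 2.33 to 3.35 CPM in the first series and 0 in every library of the second, and the others were at 0.277 CPM or less in every library.

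**Figure D5:**
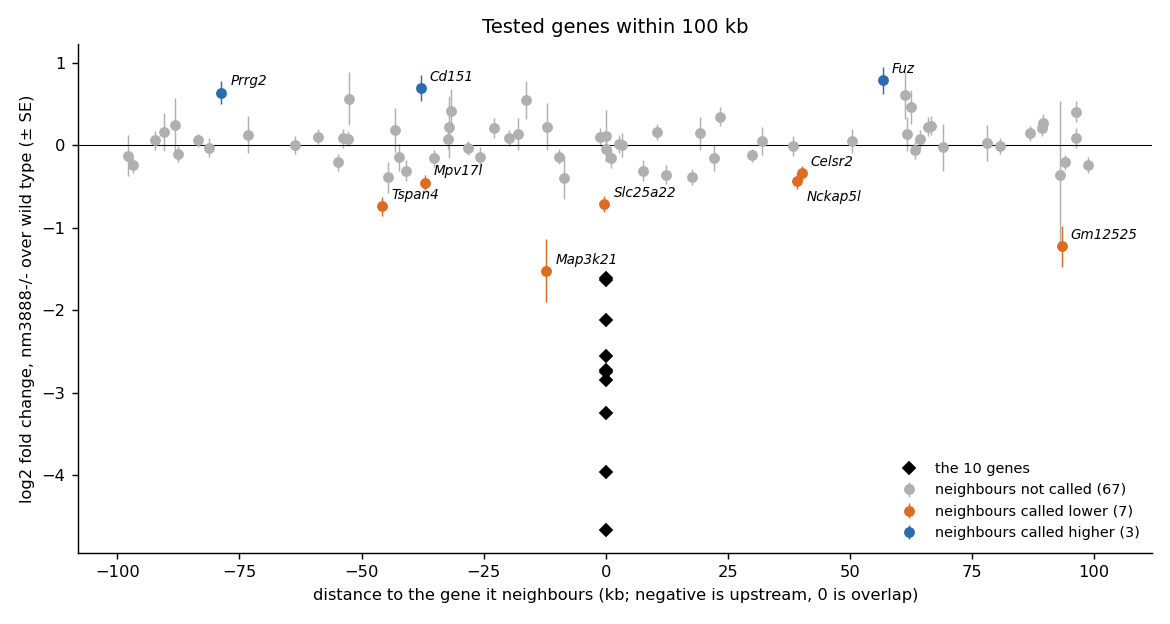
Log2 fold change (± SE) of the 77 tested genes within 100 kb against their distance in kilobases from the gene they neighbour (negative is upstream), in orange where called lower, blue where called higher and grey where not called, with the 10 genes as diamonds at 0. *Slc25a22* lies at −0.71 beside *Cend1*, and *Map3k21* is the lowest neighbour at −1.52.

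The 5 tested genes whose pattern over the 7 libraries was most like the mean pattern of the 10 were *Atcay*, *Slc2a6*, *Etl4*, *Slc45a1* and *Tctex1d1*. Likeness was Pearson's r of log2 CPM with the mean standardized log2 CPM of the 10 genes, and it was 0.996 to 0.997. The 7 points share libraries, depth and genotype with the 10 genes. The genotype gap enters r, and its part was not measured, so no p is given. *Atcay*, which encodes caytaxin, a neuronal protein whose loss causes ataxia, had 106, 108 and 131 CPM in the wild type and 14.3, 10.3, 24.4 and 18.7 CPM in the mutant. As in the 10 genes, mutant 2 was lowest. *Slc45a1*, a sugar transporter, had 62.4, 62.0 and 74.3 CPM in the wild type and 6.03, 4.71, 8.14 and 6.40 CPM in the mutant. *Etl4* had 129, 102 and 125 and then 21.5, 18.5, 28.9 and 27.5 CPM, and *Slc2a6*, of the glucose transporter family, 12.1, 12.1 and 16.1 and then 2.51, 2.35, 3.62 and 3.76 CPM. *Tctex1d1* was at 0.351 CPM or less throughout.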

How the data were processed

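Ribosome-bound RNA from 3 wild-type and 4 *nm3888-/-* mice was sequenced by the authors, 1 library per mouse. The deposited values are raw read counts per gene. By the study's methods the authors trimmed and deduplicated reads with fastp, aligned them to mm10 with Bowtie2 and counted them per gene. Per the file headers, featureCounts 2.0.1 counted read pairs on GENCODE M25 with both ends mapped and reverse strand, from Bowtie2 alignments in the first library series and from STAR alignments in the second, so a level can differ between the series by the aligner.

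Counts were normalized by TMM and tested with edgeR 4.0.16 (quasi-likelihood, R 4.3.3, limma 3.58.1), with the library series as a term, on the 17621 genes that passed filterByExpr by genotype, with Benjamini-Hochberg adjustment over all of them and a threshold of 0.05. The study's methods give batch as a covariate, and since no source used here assigns libraries to batches, the series stood in for it. CPM are counts over the library total times its TMM factor, SE is the log2 fold change over the root of F, and called means an adjusted p under 0.05. DESeq2 1.42.0, RLE scaling, no filter, other covariates, each series alone and leaving out each library were alternatives.

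The 10 genes and the lists of relatives, partners and markers were chosen with earlier results of these data known. Named were the 10 genes, called relatives, partners and neighbours (100 kb), the relative of each gene with the highest wild-type level per length, other targets beyond the weakest of the 10 and the nearest short of it, and the 5 genes most alike over libraries. Other genes of these lists (*Cpt1a*, *Bckdha*, *Bckdhb*, *Dbt*, *Gria1* to *Gria4*, *Gnb1*, *Calm2* and *Bscl2*) were added after their values were seen. Items withheld for evaluation are not reported here. Same-numbered libraries deviated together (correlations of deviations from the group means of 0.914, 0.946 and 0.960), which follows the library series, and within the first series alone the correlation was 0.0352. The pairing comes from the replicate numbers in the labels.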

Additional observations from a re-analysis of the deposited data

Results flagged for a closer look

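Of the 27 genes examined (the 10 genes and the called relatives, partners and neighbours), 1 had a mutant mouse set apart from the other 3. *Nckap5l*, 39264 bases downstream of *Faim2*, had 25.8 CPM in mutant 2 and 29.4, 29.4 and 29.1 CPM in mutants 1, 3 and 4, so that the gap to the nearest mouse was 0.900 of the whole range, above Dixon's critical value for 4 samples. Chance passes this limit in about 1 of 20 groups. None of the 10 genes themselves passed it.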

How the results depend on the processing

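The 10 genes kept their direction in 150 of 150 alternative values, and 10 were called lower in each alternative except with no batch term (8) and with sex in place of the library series (9). Over all alternatives their log2 fold changes ran from −5.02 to −4.22 in *2900011O08Rik* and from −1.74 to −1.53 in *Nacad*, and 18 of the 150 moved by more than the spread between mice. The counts of other genes moved more. With no batch term 309 genes were called in all (1504 as reported), with 27 other targets lower, 1 neighbour, 0 partners and 0 relatives. With sex in place of the series the counts were 102 genes, 10 other targets, 0 neighbours, 0 partners and 0 relatives. With the replicate block they were 812 genes, 63 other targets, 2 neighbours, 2 partners and 0 relatives, and the block ended no call of the 10 genes. In the first series alone they were 679 genes, 57 other targets, 1 neighbour, 1 partner and 1 relative, and in the second alone 44 other targets, 2 neighbours and 1 relative. DESeq2 called 5 relatives, and edgeR with no filter 7 partners. The interaction between genotype and series was called in 14 genes as reported, in 77 by DESeq2 and in 370 with no filter. Leaving out 1 library at a time gave 599 to 1425 genes, 52 to 99 other targets, 1 to 9 neighbours, 0 to 6 partners, 1 relative and 10 to 32 interaction genes. The lowest counts of genes, other targets, neighbours and partners came without wild-type mouse 3, the most deeply sequenced library and the only wild type of its series, and the interaction could not be fitted without it. The causes were not tested.

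RLE scaling moved the median of all genes by under 0.1 on the log2 scale. A count of 32 in the least abundant gene, *5330417C22Rik* in mutant 1, limits that value most. The second series rests on 1 wild-type mouse. Windows of 50 and 250 kb gave 7 and 15 called neighbours of 40 and 146 tested.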
